A study of Arabidopsis thaliana with 8 samples.

Results

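Transcripts of 5 nuclear genes of the chloroplast thiol redox system and of the carbon fixation enzymes under its control were followed in Arabidopsis thaliana. They are AT2G04700, which encodes the catalytic part of ferredoxin-thioredoxin reductase (FTR), AT2G41680 (NTRC), AT3G52960, a type II peroxiredoxin, AT3G55800 (SBPASE, spot 1517) and AT1G32060 (PRK, spot 3151). They were chosen by locus, as spots that the platform's probe table gives to exactly 1 gene. All 5 were present, each by 1 spot, among 692 spots with a single gene and 3439 spots in all, and all 5 were tested, with 0 arrays at 0. The groups were 4 arrays of wild type (WT) and 4 arrays of a tatA line, all of ecotype Columbia 0 and all from total RNA. The labels describe the tatA line both as an antisense line and as a mutant. TatA belongs to the twin-arginine translocase of the thylakoid membrane, and the line is labelled as defective in that pathway. The labels give neither tissue, age, growth condition nor the number of independent lines. None of 17 marker genes of root, flower, seed and green tissue was the only gene of a spot, so the tissue was not checked. The transcript of TATA is not analysed here.

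In illuminated chloroplasts, electrons from photosystem I pass through ferredoxin to FTR, which reduces thioredoxins, and these open regulatory disulphides in enzymes of the stroma. NTRC, a protein with a reductase and a thioredoxin domain, takes its electrons from NADPH instead and also serves in the dark and in low light. Peroxiredoxins are thiol enzymes that remove peroxides. Sedoheptulose-1,7-bisphosphatase (SBPASE) and phosphoribulokinase (PRK) work in the regeneration of ribulose-1,5-bisphosphate, the acceptor of carbon dioxide in the Calvin cycle. Both are switched on by thioredoxin at the protein level, which an array of transcripts does not measure.

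Values are spot intensities as deposited, on a linear scale that ends at 100. Median intensity was 0.429 to 0.531 on WT arrays and 0.365 to 0.390 on tatA arrays, and without normalization the median log2 change of all rows was -0.47. Log2 changes below are tatA minus WT on quantile-normalized values (median of all rows -0.09), so each is read against the other spots, with limma's SE and Benjamini-Hochberg adjusted p over 3261 rows. Within a group, replicates 1 and 2 resembled each other, and so did replicates 3 and 4. The median absolute log2 difference was 0.166 between WT replicates 1 and 2 but 0.398 between WT replicates 1 and 3. Nothing in the labels says that replicates came from separate plants, so p-values measure the spread between arrays, which may be technical. Precision is limited by the 4 arrays of each group. Fewer cells that express a gene and less RNA per cell cannot be told apart in such samples.

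Of the 5 genes, AT3G52960 rose in tatA, and the FTR subunit, NTRC, SBPASE and PRK did not pass. That is 1 of 5 at an adjusted p under 0.05, where 32.1% of all rows passed (15.3% higher and 16.8% lower in tatA) and 31.4% of those with a single gene name. The median change of the 5 was 0.14. On normalized values the arrays of the groups did not overlap for 1 of the 5, which was higher, against 35.5% of all rows (16.6% higher and 18.9% lower). On the deposited scale 2 of the 5 passed, both lower, against 42.6% of rows (9.51% higher and 33.1% lower). On that scale 3 of the 5 did not overlap, 1 higher and 2 lower, against 43% of rows (9.29% higher and 33.7% lower). Limma was also run with each replicate pair (1-2 or 3-4) of each group as its own random block. Then 0 of the 5 passed and 1 had an unadjusted p under 0.05, against 16.5% and 30.9% of rows. For 5 genes, none of these counts is far from what the background share gives.

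**Figure D1:**
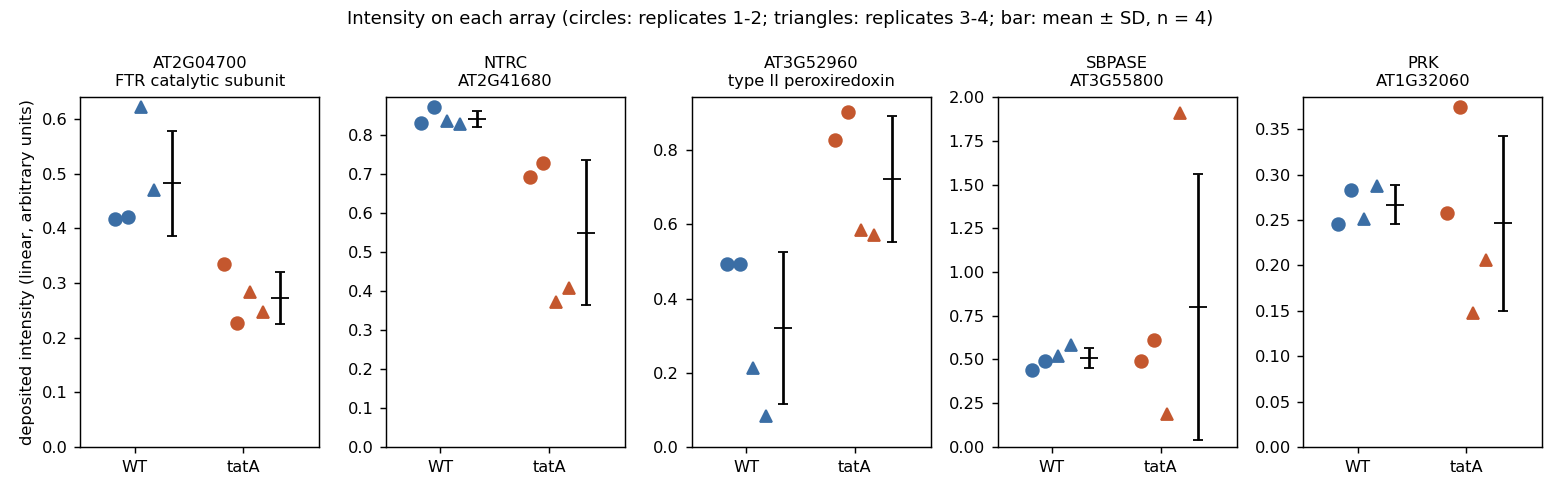
Deposited intensity (linear, arbitrary units) of the 5 genes on each of 4 WT arrays (blue) and 4 tatA arrays (orange), with replicates 1-2 as circles, replicates 3-4 as triangles and bars for mean ± SD (n = 4). The peroxiredoxin AT3G52960 lies between 0.0828 and 0.493 in WT and between 0.572 and 0.904 in tatA, while SBPASE reaches 1.91 on a single tatA array.

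The FTR catalytic subunit passes electrons from ferredoxin to thioredoxin. Its intensity was 0.417, 0.421, 0.622 and 0.471 on WT replicates 1 to 4. On tatA replicates 1 to 4 it was 0.334, 0.228, 0.284 and 0.246. Every tatA array was below every WT array on this scale, and the means were 0.483 ± 0.0957 (WT) and 0.273 ± 0.0471 (tatA; SD, n = 4 arrays). After quantile normalization tatA replicate 1 (-1.39) lay just above WT replicate 4 (-1.40), so the groups overlapped. The log2 value was then -0.47 (SE 0.19, limma adjusted p = 0.081, 95% interval -0.90 to -0.05, which is not adjusted for the number of rows). On the deposited scale it was -0.82 and passed (adjusted p = 0.0148), beside the array-wide shift of -0.47. The value was -0.39 in replicates 1-2 and -0.56 in replicates 3-4, so both pairs had the same sign. Of the 8 fits without 1 array it passed in 1, at -0.59 without tatA replicate 1 (limma adjusted p = 0.0443). The rest had adjusted p of 0.107 to 0.196. Nor did it pass with replicate pairs as a random block (0.308) or averaged (0.358). The exact permutation test over arrays gave p = 0.0571 (two-sided, n = 4 and 4, smallest possible 0.0286).

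NTRC combines an NADPH-dependent reductase with a thioredoxin in 1 protein. The WT arrays read 0.831, 0.873, 0.836 and 0.828, a mean of 0.842 ± 0.0211 (SD, n = 4 arrays). The tatA arrays read 0.694, 0.728, 0.372 and 0.407, a mean of 0.550 ± 0.186 (SD, n = 4 arrays). All tatA arrays were below all WT arrays in intensity, but tatA replicates 3 and 4 were far lower than tatA replicates 1 and 2. After normalization the log2 value was -0.30 (SE 0.26, limma adjusted p = 0.399, 95% interval -0.88 to 0.29). It was 0.020 in replicates 1-2 and -0.61 in replicates 3-4. That difference between pairs, -0.63 (SE 0.17), had an unadjusted p of 0.00801 and an adjusted p of 0.0587 in limma's interaction of group with pair. With replicates 3-4 alone NTRC passed, at -0.62 (adjusted p = 0.0266), as did 1456 of 3261 rows. On the deposited scale NTRC was at -0.68 (adjusted p = 0.0425), and without tatA replicate 3 the normalized value was -0.11.

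Spots with numbers near those of the reductase genes were lower in tatA too, although the sources used here give no layout that ties a number to a place on the array. The 50 spots with the nearest numbers to NTRC had a median log2 change of -0.65, and those nearest to the FTR subunit one of -0.35. The median near SBPASE was also -0.35, where SBPASE itself had a positive value (0.52, and 0.62 when centred on its neighbours). Centred on such neighbours, NTRC had a value of 0.17 (adjusted p = 0.485) and the FTR subunit one of -0.25 (adjusted p = 0.392). The spots next to the FTR subunit (number 3436) were also lower in tatA: AT2G38500 at 3435 had a log2 value of -1.07 (limma adjusted p = 0.080) and AT4G20820 at 3437 fell by 1.23 (adjusted p = 0.00618).

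AT3G52960 encodes a type II peroxiredoxin of the chloroplast, a thiol enzyme that reduces hydrogen peroxide and organic peroxides. Its WT intensity was 0.493 on replicate 1 and 0.493 on replicate 2, but 0.214 on replicate 3 and 0.0828 on replicate 4. In tatA it was 0.829, 0.904, 0.586 and 0.572 on replicates 1 to 4. Replicates 3 and 4 were the lower pair in both groups, and every tatA array was above every WT array. The means were 0.321 ± 0.206 and 0.722 ± 0.169 (SD, n = 4 arrays), a ratio of 2.25.

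After normalization the log2 rise of AT3G52960 was 1.85 (SE 0.62, limma adjusted p = 0.0476, 95% interval 0.46 to 3.24). The exact permutation test over arrays gave the smallest p it can give (0.0286, two-sided, n = 4 and 4). Any row whose groups do not overlap reaches that p, as 35.5% of rows would, so it adds nothing to the lack of overlap. It also treats all arrays as separate. The rise was 1.04 in replicates 1-2 and 2.66 in replicates 3-4, and it passed within each pair alone (limma adjusted p = 0.00534 and 0.0133). In those fits 919 and 1456 of 3261 rows passed. Their p-values measure only the spread between the arrays of a pair, which may be technical. Its call did not hold when pairs were a random block (adjusted p = 0.114) or averaged (0.229), without the intensity trend (0.0697) or on the deposited scale (0.0515). Nor did it hold without any 1 of WT replicates 3 and 4 and tatA replicates 1 to 4 (0.0577 to 0.112). The call held with the replicate number as a block shared by both groups (0.0197). Its direction was the same in all of these fits.

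The size of the AT3G52960 rise varied most with the WT arrays. WT replicates 3-4 lay 2.24 below WT replicates 1-2 on the normalized log2 scale, a gap larger than that of 94.4% of rows. In tatA the same gap was 0.623, larger than that of 71.8% of rows. WT replicate 3 was 2.58 times as bright as WT replicate 4. Both were dim, at percentiles 16.7 (replicate 3) and 5.70 (replicate 4) of the rows on their arrays. With an offset of 0.118 added before log2 the rise was 1.32. Without WT replicate 4 the rise was 1.24. The interaction of group with pair was 1.62 (SE 0.58) and did not pass (unadjusted p = 0.0268, limma adjusted p = 0.117). Without WT replicate 3 it was 2.36, and without WT replicate 4 it was 0.90. Either fit leaves 1 WT array in replicates 3-4, which is assumed to vary like the arrays of the other groups, so only the size is given. Over the 5 genes 0 passed for this interaction and 2 had an unadjusted p under 0.05, against 11.7% and 28.9% of all rows. The 50 spots with the nearest numbers to AT3G52960 had a median change of 0.09, and centred on them the rise was 1.61 (adjusted p = 0.0147). The closest spots by number, 1965, 1967 and 1968, were higher in tatA too, though none passed. Their log2 values were 1.61, 0.86 and 3.09 (limma adjusted p = 0.0722, 0.154 and 0.180). Spot 1968, with the largest value, was dim, with mean intensities of 0.133 (WT) and 0.190 (tatA). Whether AT3G52960 shares a shift with them was not tested.

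**Figure D2:**
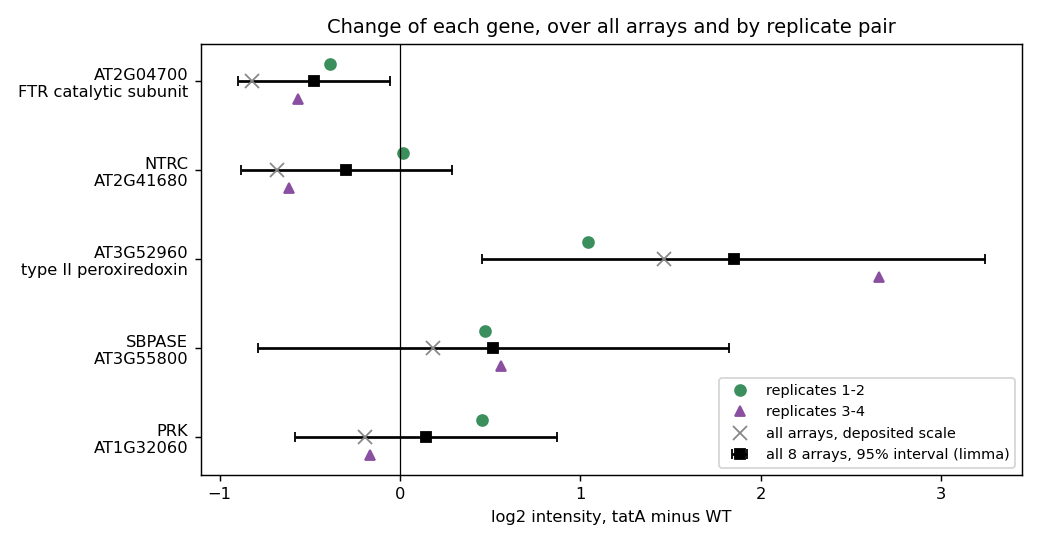
Log2 intensity in tatA minus WT for the 5 genes, over all 8 arrays after quantile normalization (squares, with limma's 95% interval), on the deposited scale (crosses), and within replicates 1-2 (circles) and replicates 3-4 (triangles). AT3G52960 lies right of 0 in both pairs (1.04 and 2.66), and NTRC and PRK have opposite signs in the pairs after normalization.

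SBPASE removes a phosphate from sedoheptulose-1,7-bisphosphate, an irreversible step of the Calvin cycle. Its WT intensity was 0.442, 0.489, 0.518 and 0.583, and varied little (0.508 ± 0.0588, SD, n = 4 arrays). The tatA arrays read 0.489, 0.612, 0.189 and 1.91, a mean of 0.800 ± 0.761 (SD, n = 4 arrays). The lowest and the highest of all 8 values were thus tatA replicates 3 and 4, which differed 10.1-fold. A gap of that size between these arrays, 3.33 on the normalized log2 scale, exceeded that of 97.3% of rows, whose median was 0.224.

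The log2 value of SBPASE was 0.52 (SE 0.58, limma adjusted p = 0.509, 95% interval -0.79 to 1.82). Single arrays decided it: the value was -0.04 without tatA replicate 4 and 1.07 without tatA replicate 3, and neither passed (adjusted p = 0.943 and 0.0893). In replicates 1-2, whose arrays were close to each other, it was 0.47 (adjusted p = 0.129 when fitted alone). Spot 1515, close to that of SBPASE by number only, was bright and fell. Its mean was 7.27 on WT arrays and 2.21 on tatA arrays (log2 change -1.51, limma adjusted p = 0.000104). Spots 1516 and 1519 had negative values too, -3.95 (adjusted p = 0.140) and -0.65 (adjusted p = 0.00302). Spot 1516 was dim, with means of 0.108 (WT) and 0.0302 (tatA). A link to the values of SBPASE was not tested.

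PRK makes ribulose-1,5-bisphosphate with ATP. Its WT arrays read 0.246, 0.284, 0.251 and 0.288 (0.267 ± 0.0218, SD, n = 4 arrays). The tatA arrays read 0.258, 0.375, 0.148 and 0.206 (0.246 ± 0.0966, SD, n = 4 arrays). The WT values all lay inside the range of the tatA values, with tatA replicate 2 highest and tatA replicate 3 lowest of the 8. The log2 value was 0.14 (SE 0.32, limma adjusted p = 0.754, 95% interval -0.58 to 0.87). It was 0.45 in replicates 1-2 and -0.16 in replicates 3-4, and -0.19 on the deposited scale. Without tatA replicate 2 it was -0.10, and without tatA replicate 3 it was 0.39. These intervals leave room for changes of either sign in both Calvin cycle genes.

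Relative to the mean, intensity was more spread among tatA than among WT arrays for 3 of the 5 genes, NTRC, SBPASE and PRK. The share of all rows with this pattern is not given here, so the count only describes the 5 genes. For NTRC the spread followed the replicate pairs, and for PRK it lay both between and within them. From replicates 1-2 to replicates 3-4 of tatA, NTRC differed by -0.94 and PRK by -0.89 on the normalized log2 scale, gaps larger than those of 83.8% and 83.0% of rows. In WT the same gaps were -0.30 and -0.28. Within the tatA pairs, PRK read -1.77 and -1.21 on replicates 1 and 2, and -2.69 and -2.08 on replicates 3 and 4. The gap between replicates 3 and 4, 0.607, was larger than that of 81.3% of rows. Deviations of NTRC and PRK from their group means had a Pearson r of 0.90 over the 8 arrays, the highest among the 10 pairs of the 5 genes. The others lay between -0.31 and 0.49. These are descriptions over 8 arrays that share the replicate pairs.

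Ratios between genes on the same array do not depend on how that array was scaled. The level of such a ratio reflects the spots as well as the transcripts, so the groups are compared by the difference in a ratio and its level is not read as relative abundance. The log2 ratio of the FTR subunit to AT3G52960 was 0.89 ± 1.36 in WT and -1.39 ± 0.41 in tatA (SD, n = 4 arrays), with no overlap. The ratio of NTRC to AT3G52960 went from 1.72 ± 1.21 to -0.43 ± 0.18 (SD, n = 4 arrays), also with no overlap. Against either reductase transcript, then, that of the peroxiredoxin was higher on every tatA array than on every WT array.

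The ratio of AT3G52960 to PRK was -0.06 ± 1.28 in WT and 1.60 ± 0.31 in tatA (SD, n = 4 arrays). NTRC to PRK was 1.66 ± 0.11 in WT and 1.18 ± 0.24 in tatA (SD, n = 4 arrays), a difference of -0.48 with no overlap, in which the pair shifts shared by both genes cancel. In all, 4 of the 10 ratios did not overlap between groups, beside 31.7% of all ratios between named genes. The ratio of the FTR subunit to NTRC differed by -0.14 between groups, and its groups overlapped. All 4 ratios with SBPASE overlapped, with SDs of 1.30 to 1.49 in tatA.

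**Figure D3:**
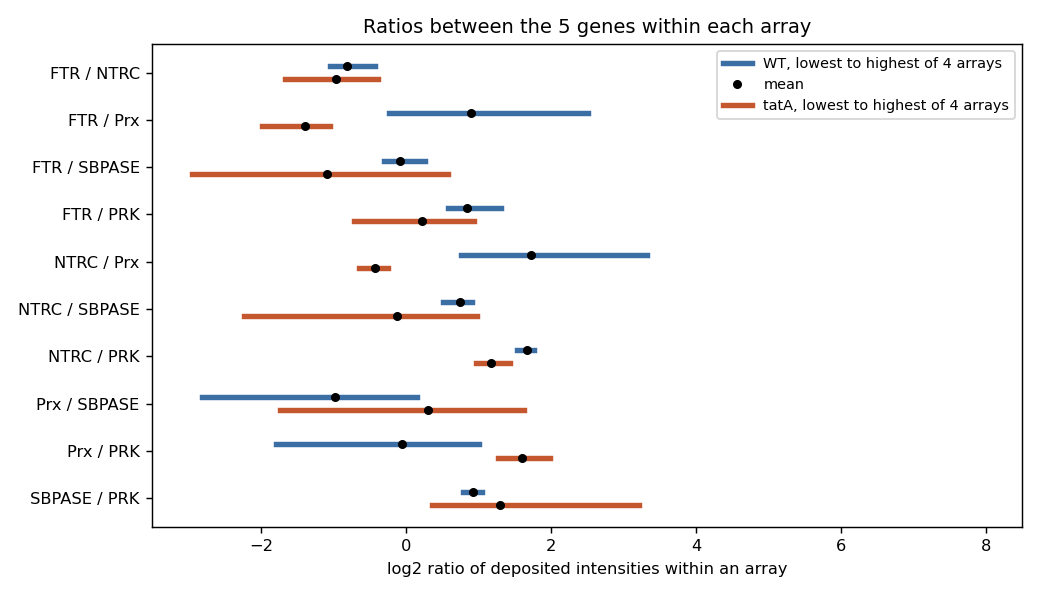
Log2 ratio of deposited intensities of each 2 of the 5 genes within an array (FTR, AT2G04700; Prx, AT3G52960), drawn from the lowest to the highest of 4 WT arrays (blue) and 4 tatA arrays (orange) with the mean as a dot. The bars of the groups do not overlap for 4 of 10 ratios, 3 of which include the peroxiredoxin.

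Other genes of the pathway were seldom the only gene of a spot. The 870 spots with several genes and the 1877 with no gene were not searched for them. Of 97 genes in 6 lists (plastid thioredoxin system, peroxiredoxins and thiol repair, other plastid antioxidants, Calvin cycle, other thioredoxin targets, and redox enzymes outside the plastid), 7 carried a single name, the 5 above and 2 more, and all 7 were tested. Of these 7, 2 rose and 0 fell at an adjusted p under 0.05 (limma), and 2 were higher and 2 lower at an unadjusted p under 0.05. Among all rows 15.3% were called higher and 16.8% lower after adjustment, and 20.4% and 24.4% at an unadjusted p under 0.05. With replicate pairs as random blocks 1 of the 7 passed, against 16.5% of all rows, and AT3G52960 did not (limma adjusted p = 0.114). The median of the 7 was 0.14.

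AT5G58330, the NADP-dependent malate dehydrogenase of the malate valve, is activated by thioredoxin like SBPASE and PRK. It read 3.27, 3.67, 2.13 and 2.53 on WT replicates 1 to 4, and 4.38, 4.23, 6.10 and 6.23 on tatA replicates 1 to 4. All tatA arrays were above all WT arrays, with means of 2.90 ± 0.698 and 5.23 ± 1.08 (SD, n = 4 arrays). Its log2 rise was 1.13 (SE 0.16, limma adjusted p = 0.00121), by 0.73 in replicates 1-2 and 1.53 in replicates 3-4. Normalization gave tatA replicates 1 and 2 the same log2 value (2.34), so the SE leaves out their spread. The call held when pairs were a random block (adjusted p = 0.00459) and without any 1 array (0.0011 to 0.00541), but not with each pair averaged (0.0741).

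SRX (AT1G31170), a sulfiredoxin that repairs overoxidised 2-Cys peroxiredoxins, read 0.468, 0.433, 0.855 and 0.940 in WT. In tatA it read 0.370, 0.306, 0.146 and 0.288, below every WT array. The log2 value was -0.94 (SE 0.34, limma adjusted p = 0.0647), with -0.20 in replicates 1-2 and -1.67 in replicates 3-4. It passed on the deposited scale (-1.28, adjusted p = 0.0207), which holds the array-wide shift too. It also passed with an offset before log2 (adjusted p = 0.0473), with the dimmest 25% of genes left out (0.0485) and in replicates 3-4 alone (0.0257). It did not pass with pairs as random blocks (0.206) or averaged (0.253), centred on neighbouring spots (-0.64, adjusted p = 0.159), or in any of the 8 fits without 1 array (0.0502 to 0.156).

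Profiles across the 8 arrays were set beside those of the 645 other named genes tested, by Pearson r of normalized log2 values. AT3G52960 was most like AT5G15390 (r = 0.98), AT4G35660 (0.96) and AT3G47650 (0.95), whose log2 values were 1.12, 2.71 and 0.93. Positive values follow from the choice of genes by likeness over both groups and are no separate result. NTRC was most like AT2G37000 (r = 0.97), AT1G50020 (0.95) and AT2G44760 (0.95). The FTR subunit was most like PRA1.B3 (r = 0.93), AT1G06730 (0.91) and AT4G20820 (0.90), the last of which is its neighbour by spot number.

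For SBPASE the nearest were AT1G54520 (r = 0.88), AT4G38490 (0.81) and AT3G44050 (0.78), and for PRK AT4G05070 (0.87), AT2G05120 (0.85) and AT2G24810 (0.84). An r above 0.9 was reached with 19 genes for AT3G52960, 13 for NTRC, 2 for the FTR subunit and 0 for SBPASE and PRK. None of the 5 genes was among the 3 nearest of another. The arrays share the group and the replicate pair, and these r values carry no test.

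**Figure D4:**
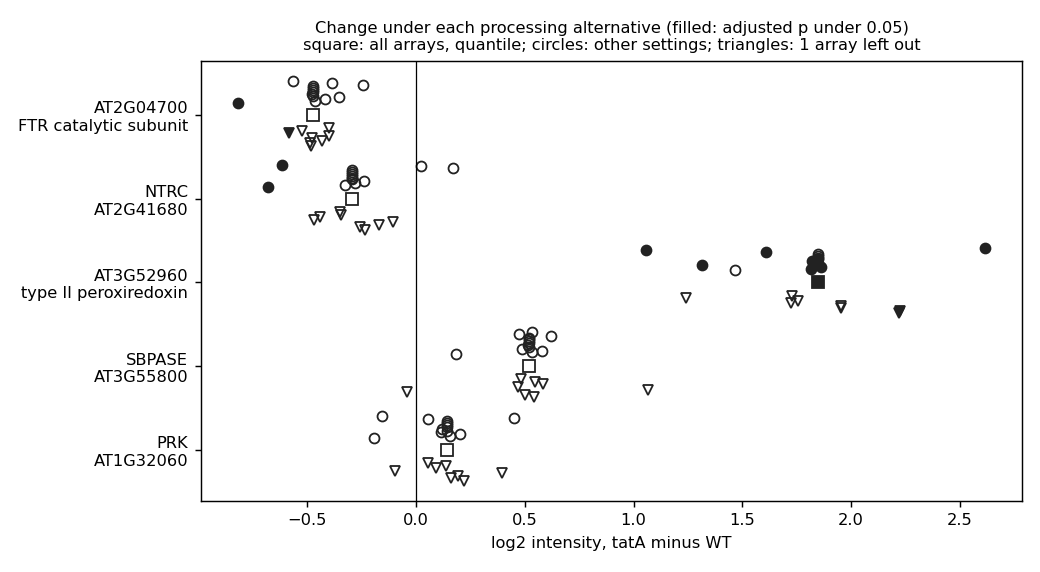
Log2 intensity in tatA minus WT of the 5 genes under the processing used here (squares), under other settings (circles) and with 1 array left out (triangles), filled where limma's adjusted p was under 0.05. AT3G52960 stays right of 0 throughout, from 1.06 to 2.62, and the FTR subunit left of 0, from -0.82 to -0.25, whereas NTRC, SBPASE and PRK cross 0.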

How the data were processed

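The authors deposited spot intensity on a linear scale, 1 colour and 1 column per array. The sources used here do not say how values were read, background-corrected or scaled. Groups and replicate numbers come from sample titles. Gene names come from GEO's platform annotation through RefSeq identifiers (TAIR10.1), used for names only, since no build is named for the array. Members and lists were chosen with earlier results of these data known. Named were the 5 members, the 3 most alike genes of each, and every tested list gene. AT2G38500 and spots 1515, 1516, 1519, 1965, 1967 and 1968 were named after their values were seen.

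Spots at 0 on more than 4 of 8 arrays (177) were left out. Remaining zeros took the smallest positive value of their array. Then came log2, quantile normalization and averaging of spots of 1 locus (3261 rows). Groups were compared with limma 3.58.1 (R 4.3.3, eBayes with trend, two-sided), which was tested on simulated data. The simulated arrays were independent, whereas arrays of a replicate pair correlated here (0.546 in the random block fit). The simulation thus cannot give the error rate in these data. Figures used matplotlib 3.10.9.

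Same-numbered WT and tatA arrays deviated together (r of 0.266 to 0.337 across rows; 0.0317 to 0.131 for the other number of a pair; below -0.15 between pairs), so the number was used as a block in an alternative fit. Alternatives covered scaling, zeros, dim spots, variance trend, replicate structure, neighbouring spot numbers and single arrays.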

Additional observations from a re-analysis of the deposited data

Results flagged for a closer look

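The WT arrays of NTRC (AT2G41680) were flagged because 1 array stood apart: WT replicate 2 (0.873) was separated from the next highest by 0.837 of the group's range, above the 95% critical value of Dixon's test for 4 samples. The whole WT range was narrow, from 0.828 to 0.873, and lay above all tatA values. Of 10 groups of 4 arrays (5 genes in WT and tatA) this was the 1 flagged, and chance flags about 1 group in 20. No interaction of group with replicate pair passed for the 5 genes (lowest limma adjusted p = 0.0587, for NTRC).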

How the results depend on the processing

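The count over all rows moved most with what counts as a replicate, whereas for the 5 genes the deposited scale changed 3 calls and the random block or averaging 1 each. Of all rows 1046 passed, against 537 when replicate pairs were a random block and 57 when each pair was averaged, and 784 to 951 without 1 array. On the deposited scale 310 passed higher and 1080 lower, in place of 499 and 547. The rise of AT3G52960 (1.85) lost its call when pairs were a random block or averaged (adjusted p = 0.114 and 0.229), without the intensity trend (0.0697) and on the deposited scale (1.47, adjusted p = 0.0515). It ran from 1.24 to 2.22 without 1 array. The FTR subunit (-0.47) passed on the deposited scale (-0.82) and ran from -0.59 to -0.40 without 1 array. NTRC (-0.30) passed on the deposited scale (-0.68) and in replicates 3-4 alone (-0.62), and changed sign in replicates 1-2 alone (0.021) and centred on neighbouring spots (0.17). It ran from -0.47 to -0.11 without 1 array. PRK (0.14) changed sign on the deposited scale (-0.19) and in replicates 3-4 alone (-0.16), with -0.10 to 0.39 without 1 array. SBPASE ran from -0.044 to 1.07 without 1 array. The interaction for AT3G52960 ran from 0.90 to 2.36 without 1 array. The replicate block, with 1027 rows passing, changed no call of the 5 genes, SRX or AT5G58330 (AT3G52960 adjusted p = 0.0197). Fits of 1 pair alone and the interaction's offset and single-array fits were chosen after seeing the data. Depth in the sense of counts does not apply, and signal over background is not given.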
